A study of Mus musculus with 30 samples.

Results

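The 10 genes described here encode known protein partners of the forkhead factors FoxK1 and FoxK2, and their RNA was measured in AML12 cells, a line of mouse hepatocytes, in which FoxK1, FoxK2 or both had been knocked down with siRNA. They were taken by name: Sin3a, Sin3b, Hdac1, Hdac2, Sap30 and Suds3 for the SIN3 corepressor complex, and Bap1, Asxl1, Asxl2 and Hcfc1 for the BAP1 deubiquitinase complex. They were 10 of 49089 gene identifiers counted, and all 10 were among the 11368 genes that passed the filter on low counts and were tested. In the double knockdown (DKD) at basal, Sin3b was raised by 51.5% and Sap30 fell by 33.8%, while after insulin neither differed detectably from Control. The insulin effect in DKD minus that in Control passed the test for neither gene (edgeR adjusted p = 0.106 for each). Of all tested genes 10.3% were higher and 10.8% lower in DKD at basal at an adjusted p below 0.05. After insulin 1.21% passed in either direction. Insulin lowered Suds3 in DKD, FoxK2 KD and Control cells, and Asxl1 in Control and FoxK1 KD cells, at the same threshold. Of all tested genes insulin lowered 7.99% in DKD, 13.7% in FoxK2 KD, 13.1% in Control and 15.4% in FoxK1 KD cells. Both genes had effects below 0 in every state, and no difference from the effect in Control was called. The Control calls and the Suds3 call in FoxK2 KD cells were lost in several alternative runs. Hdac1 and Hcfc1 passed the test in none of the 13 comparisons.

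SIN3 proteins are scaffolds without enzyme activity that bring the histone deacetylases HDAC1 and HDAC2 to sequence-specific DNA-binding factors, with SAP30 and SUDS3 as stable subunits of the core. BAP1 removes ubiquitin from histone H2A, needs an ASXL protein for its activity, and binds the promoter-associated protein HCF-1, which Hcfc1 encodes. FoxK1 and FoxK2 bind both complexes and are thought to direct them to DNA. The data here measure RNA of the partner genes and hold no measure of complex assembly or binding.

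The series holds 30 RNA-seq libraries in 8 groups. Cells depleted of FoxK1 (FoxK1 KD), of FoxK2 (FoxK2 KD) or of both (DKD) and Control cells were each taken at basal and after insulin (100 nM for 6 h). Each group had 4 libraries, except Control and DKD after insulin with 3 each. All cells, controls included, came from the 1 line and were kept overnight without serum in medium with 0.1% BSA, and Control cells received a non-silencing siRNA. The labels give the basal cells a treatment time of 0, whereas the treatment text describes a mock treatment. No label states that replicates came from separate cultures, so p-values measure the spread between these libraries, which may be technical. The siRNA was transfected transiently, and protein levels of the targets are not part of these files. In bulk RNA, fewer cells expressing a gene and less RNA per cell cannot be told apart.

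Libraries held 2141460 to 5668270 counted reads. Levels are given as CPM, the count of a gene scaled to the TMM-adjusted size of its library. Foxk1 was at 66.2 to 88.4 CPM in Control at basal, 27.4 to 42.0 CPM in FoxK1 KD and 42.9 to 49.7 CPM in DKD. Foxk2 was at 133 to 149.7 CPM, 42.9 to 50.6 CPM in FoxK2 KD and 41.9 to 54.7 CPM in DKD. At basal each targeted gene was lower in every library labelled as its knockdown than in every Control library. Foxk2 was also lower in FoxK1 KD than in Control at basal (log2 fold change -0.26, edgeR adjusted p = 0.0487). Insulin itself lowered Foxk1 in Control cells (-0.62, edgeR adjusted p = 0.00037), to 49.0 to 57.8 CPM. Of the hepatocyte markers, Apob (median 591 CPM), Hnf4a (139 CPM) and Krt18 (1080 CPM) were abundant, whereas Alb (6.73 CPM) and Apoa1 (0.375 CPM) were low. The ductal markers Krt19 (478 CPM) and Sox9 (192 CPM) were also present, and Adgre1, Pdgfrb and Epcam, which mark macrophages, stellate cells and ductal epithelium, had no count in any of the 30 libraries. Other macrophage markers were counted, with medians of 9.15 CPM for Csf1r, 1.15 CPM for Ptprc and 0.761 CPM for Cd68, and the fibroblast marker Col1a1 had a median of 0.339 CPM.

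The sequences just upstream of 3 members are shown because Sin3b and Sap30 carried the changes in DKD cells and Asxl1 an insulin effect. Each run is the 250 bases before the start site annotated by RefSeq (build GRCm38.p6), written 5′ to 3′ on the gene's own strand: chr8:72723020-72723269 on the plus strand for Sin3b, chr8:57487861-57488110 on the minus strand for Sap30 and chr2:153345580-153345829 on the plus strand for Asxl1. Capitals mark a match to a searched motif.
Sin3b: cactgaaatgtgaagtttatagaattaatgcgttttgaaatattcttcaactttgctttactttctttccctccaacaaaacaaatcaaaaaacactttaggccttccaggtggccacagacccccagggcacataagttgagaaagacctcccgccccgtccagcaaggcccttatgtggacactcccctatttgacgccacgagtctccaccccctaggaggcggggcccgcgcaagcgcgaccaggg
Sap30: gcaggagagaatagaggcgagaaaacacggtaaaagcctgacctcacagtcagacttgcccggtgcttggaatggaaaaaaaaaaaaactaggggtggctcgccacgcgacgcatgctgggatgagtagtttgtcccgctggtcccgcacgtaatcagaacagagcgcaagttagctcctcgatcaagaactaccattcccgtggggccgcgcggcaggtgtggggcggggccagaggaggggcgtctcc
Asxl1: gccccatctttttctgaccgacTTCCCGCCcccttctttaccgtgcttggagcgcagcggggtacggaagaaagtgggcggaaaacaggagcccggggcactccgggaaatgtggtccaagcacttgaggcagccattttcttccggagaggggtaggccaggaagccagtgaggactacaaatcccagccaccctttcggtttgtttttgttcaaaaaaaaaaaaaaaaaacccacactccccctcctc

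Short motifs were searched on both strands in the 250-base windows of 9 members, and Hdac1 was not analysed here. The forkhead core TAAACA, the longer GTAAACA that contains it, and the related TAAATA matched in 0 of 9 members. They matched in 12%, 3.17% and 12.7% of 32851 RefSeq promoter windows of the same length. The letters TTCCCGCC, bound by E2F factors, matched in 1 member, Asxl1, 228 bases before the start, and in 1.86% of all windows. The letters AAGATGGC, bound by YY1, matched in 1 member, Hcfc1, 168 bases before the start, and in 1.56% of all windows. A match is a description of these letters, and no match says only that they are not in this window.

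Per kilobase of exon, Sap30 was the highest of the 10 at 51.2 CPM per kb averaged over the 30 libraries, followed by Hdac2 at 38.0, Hcfc1 at 20.2, Bap1 at 17.5, Sin3a at 17.4, Asxl1 at 14.6, Suds3 at 12.6, Hdac1 at 11.1, Sin3b at 8.58 and Asxl2 at 2.69 CPM per kb. These stood between the 21st and the 91.8th percentile of all tested genes on the same scale. The highest group mean of a member exceeded its lowest by 1.13-fold (Hcfc1) to 1.63-fold (Sap30). The SD of the 8 group means on the log2 scale was 0.07 for Hcfc1 and 0.08 for Hdac1, the 3.43rd and 4.8th percentiles of all tested genes, and 0.24 for Sap30, 0.21 for Suds3 and 0.20 for Sin3b, the 69.1st, 59.3rd and 57.2nd percentiles, against a median of 0.18 over all tested genes.

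**Figure D1:**
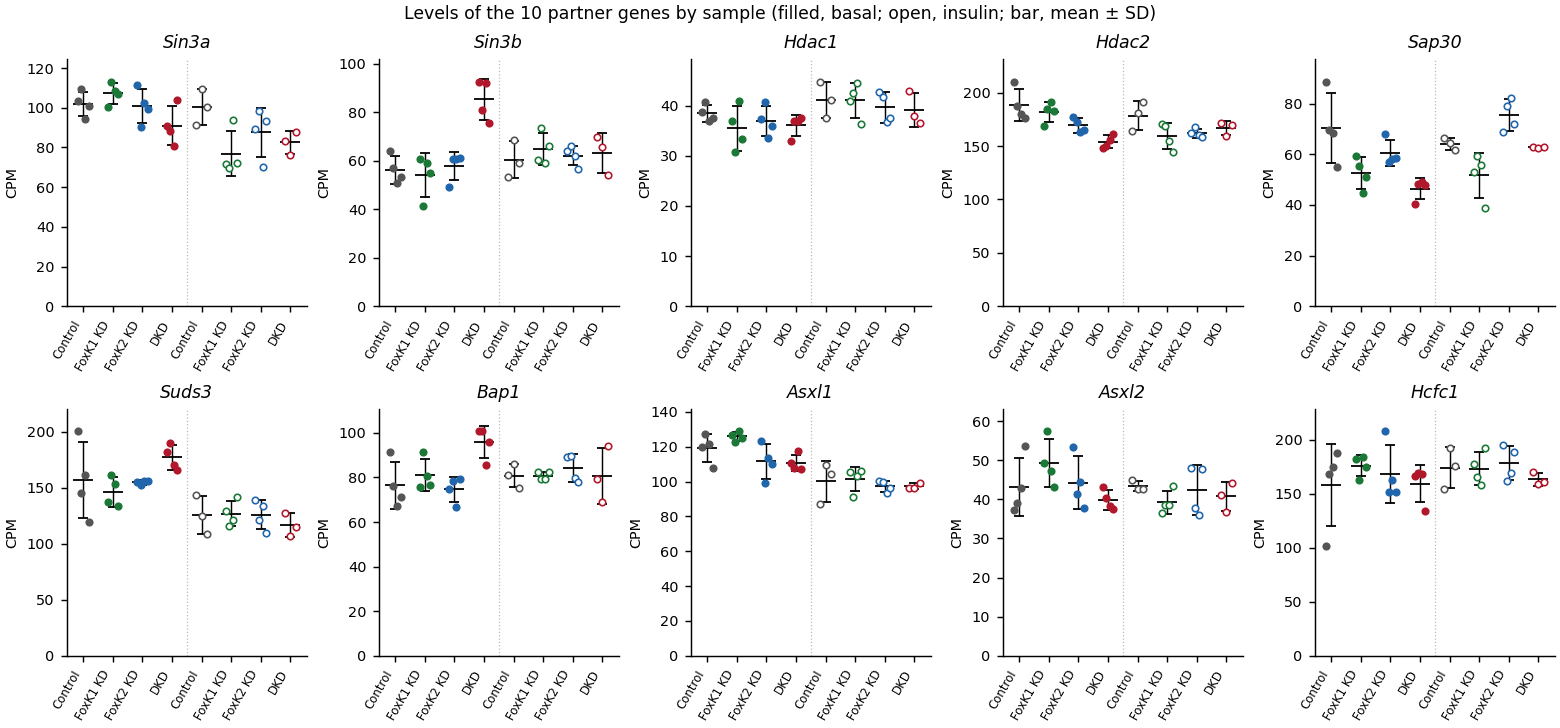
Level of each of the 10 partner genes in every library, in CPM on axes that start at 0. Filled points are basal and open points insulin-treated libraries, coloured by knockdown, and bars give the mean ± SD of each group. Sin3b is highest in the 4 DKD basal libraries (75.5 to 92.7 CPM), the DKD basal group has the lowest mean of Sap30 (46.4 CPM), and Hdac1 and Hcfc1 show little change between groups.

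A gene was called where its adjusted p in edgeR's quasi-likelihood test over all 11368 genes was below 0.05. At basal, FoxK1 KD called 0 members higher and 1 lower (Sap30), against 3.39% of all tested genes higher and 4.71% lower. FoxK2 KD called 0 of 10 members, against 0.378% of all genes called in either direction. At an unadjusted p under 0.05 it held 1 member (Hdac2) and 1272 of all 11368 genes. DKD called 2 higher (Sin3b and Bap1) and 2 lower (Sap30 and Hdac2), against 10.3% and 10.8% of all genes. The median log2 fold change of the members in DKD was -0.10 against -0.00056 over all tested genes, and a list of 10 is too short to read a difference from the background. These 3 comparisons share the 4 basal Control libraries. In DKD at basal 3 of 10 members had no overlap with Control, against 18.4% of all tested genes. In FoxK1 KD and FoxK2 KD it was 0 of 10 each, against 9.98% and 4.67%.

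After insulin, FoxK1 KD against Control called 0 members higher and 1 lower (Sin3a), with 1.86% of all genes higher and 1.72% lower. FoxK2 KD against Control called 0 of 10 members and 0.0264% of all genes. At an unadjusted p under 0.05 it held 0 members and 685 of all 11368 genes. DKD against Control called 0 of 10 members and 1.21% of all genes. At an unadjusted p under 0.05 it held 1 member (Sin3a) and 1449 of all 11368 genes. DESeq2 and limma-voom also called 0 members in the FoxK2 KD and DKD comparisons after insulin.

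Insulin against basal called 0 members higher and 2 lower in Control (Suds3 and Asxl1), with 12.4% of all genes higher and 13.1% lower. In FoxK1 KD cells it called 0 higher and 4 lower (Sin3a, Hdac2, Asxl1 and Asxl2), against 16.2% and 15.4% of all genes. In FoxK2 KD cells it called 1 higher (Sap30) and 1 lower (Suds3), against 14.4% and 13.7%. In DKD cells it called 1 higher (Sap30) and 2 lower (Sin3b and Suds3), against 8.31% and 7.99%. Insulin and basal libraries had no overlap for 0 members in Control, 2 in FoxK1 KD, 2 in FoxK2 KD and 4 in DKD. Of all tested genes 25%, 31.9%, 30% and 28.7% had no overlap in these comparisons, so such separation is common here. The difference between the insulin effect in a knockdown and in Control called 0 members in each case, with 0% of all genes called for FoxK1 KD, 0% for FoxK2 KD and 1.54% for DKD. At an unadjusted p under 0.05 these differences held 1 member for FoxK1 KD (Sin3a), 1 for FoxK2 KD (Sap30) and 3 for DKD (Sin3b, Sap30 and Bap1), and DESeq2 and limma-voom likewise called 0 members. Over all 11368 genes edgeR called 0 for FoxK1 KD, with 1519 at an unadjusted p under 0.05 and 24 called by DESeq2. For FoxK2 KD it called 0, with 625 at an unadjusted p under 0.05 and 0 called by DESeq2. For DKD 1661 of all genes had an unadjusted p under 0.05.

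Of the scaffolds, Sin3b (chr8:72723285-72758201, plus strand, GRCm38) was at 64.1, 57.0, 50.9 and 53.2 CPM in the 4 basal Control libraries. In the 4 DKD basal libraries it was at 92.7, 81.2, 92.1 and 75.5 CPM. Every DKD library stood above every Control library. The means were 56.3 ± 5.78 CPM (SD, n = 4) and 85.4 ± 8.46 CPM (SD, n = 4), a 1.51-fold difference (log2 fold change 0.60 ± 0.11 (SE), adjusted p = 0.000208). Sin3b stayed at 60.9, 41.3, 59.3 and 55.1 CPM in FoxK1 KD and 49.1, 60.7, 60.7 and 61.1 CPM in FoxK2 KD, both overlapping Control, with log2 fold changes of -0.04 (95% interval -0.26 to 0.18) and 0.05 (-0.17 to 0.27). The DKD basal group was the highest of all 8 groups for Sin3b, and the next group in order, FoxK1 KD after insulin, did not overlap it.

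After insulin Sin3b was at 53.5, 68.6 and 59.1 CPM in Control and at 69.8, 65.8 and 54.2 CPM in DKD, and the groups overlapped (log2 fold change 0.06, 95% interval -0.19 to 0.32, adjusted p = 0.895). Within DKD cells insulin lowered Sin3b (log2 fold change -0.43 ± 0.12 (SE), adjusted p = 0.0114), in a comparison that uses the same 4 DKD basal libraries as the one above. That call was lost without DKD insulin replicate 3, where the log2 fold change was -0.32. The insulin effect in DKD minus that in Control was -0.53 on the log2 scale (95% interval -0.87 to -0.20, unadjusted p = 0.00353, adjusted p = 0.106), which missed the threshold, and it passed without Control basal replicate 1.

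Sin3a (chr9:57072040-57128366, plus strand), the second scaffold, was called in other comparisons. It was at 100.2, 113, 109 and 107 CPM in FoxK1 KD cells at basal and at 71.7, 69.4, 94.0 and 72.4 CPM after insulin. All 4 insulin-treated libraries lay below the 4 basal ones (log2 fold change -0.48 ± 0.10 (SE), adjusted p = 0.000474). In Control cells Sin3a was at 103, 109, 94.5 and 101 CPM at basal and 91.5, 109.7 and 100.3 CPM after insulin, with overlapping groups and a log2 fold change of -0.02 (95% interval -0.23 to 0.19). The difference between these insulin effects was -0.46 (unadjusted p = 0.00369, adjusted p = 0.211) and was not called. After insulin, Sin3a was lower in FoxK1 KD than in Control cells (log2 fold change -0.39 ± 0.11 (SE), adjusted p = 0.0406), but FoxK1 KD replicate 3 at 94.0 CPM lay within the Control range. That call was lost with only these 7 libraries fitted, with the replicate number as a block and without any 1 of 5 libraries: Control insulin replicate 2 or 3, or FoxK1 KD insulin replicate 1, 2 or 4 (log2 fold change -0.39 to -0.32). In DKD after insulin Sin3a was below every Control library (-0.28, 95% interval -0.50 to -0.05, unadjusted p = 0.0227, adjusted p = 0.282), as 17.2% of all tested genes had no overlap there. In FoxK2 KD after insulin it was -0.19 against Control (adjusted p = 0.914). The insulin effect was -0.20 in FoxK2 KD and -0.14 in DKD cells. None of these was called.

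The balance of the 2 scaffolds followed from these levels. The ratio of Sin3a to Sin3b CPM was 1.61, 1.92, 1.86 and 1.89 in the basal Control libraries and 0.978, 1.09, 0.874 and 1.38 in DKD. The groups did not overlap, and the means were 1.82 ± 0.139 and 1.08 ± 0.217 (SD, n = 4 each). The single knockdowns had mean ratios of 2.04 ± 0.484 and 1.77 ± 0.345, overlapping Control. After insulin the ratio was 1.67 ± 0.0604 in Control (n = 3), 1.20 ± 0.274 in FoxK1 KD, 1.41 ± 0.216 in FoxK2 KD and 1.33 ± 0.259 in DKD (n = 3). The ratios are descriptions with no test.

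**Figure D2:**
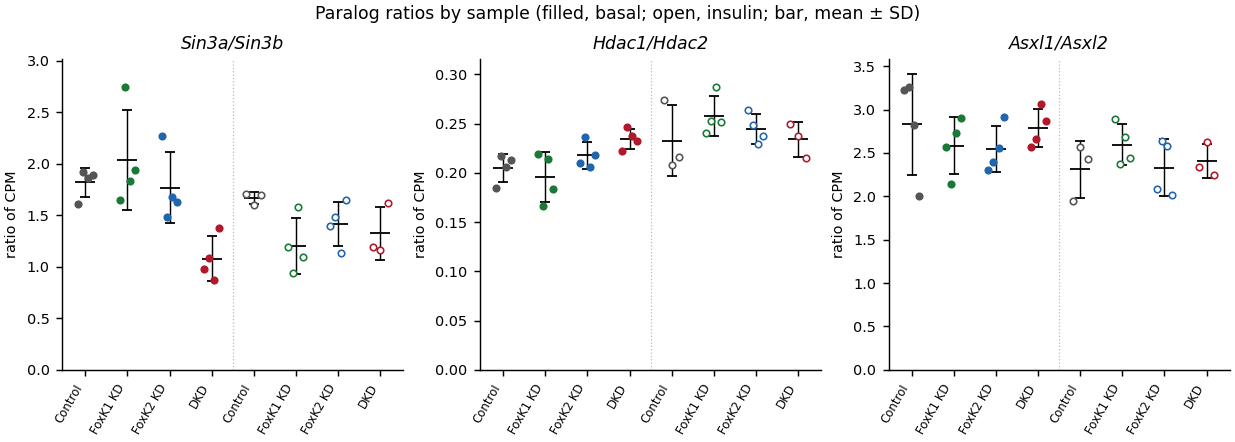
Ratio of CPM within each library for 3 paralog pairs, on axes that start at 0, with group means ± SD. The Sin3a/Sin3b ratio has its lowest group mean in DKD at basal (1.08), where the libraries (0.874 to 1.38) lie below all 4 basal Control libraries (1.61 to 1.92). At basal Hdac1/Hdac2 is also without overlap, higher in DKD (0.222 to 0.247) than in Control (0.185 to 0.217). Otherwise Hdac1/Hdac2 and Asxl1/Asxl2 overlap between most groups.

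Among the deacetylases, Hdac2 (chr10:36974544-37001889, plus strand) was at 210.4, 188, 179.9 and 176 CPM in basal Control libraries and at 148, 149.8, 156 and 162 CPM in DKD. Every DKD library was below every Control library (log2 fold change -0.29 ± 0.07 (SE), adjusted p = 0.00358). After correction of every library for GC content and exon length the log2 fold change was -0.11 ± 0.07 and the call was lost (adjusted p = 0.33). Hdac2 has 41.9% GC in its exons. In the DKD basal libraries levels rose with GC content by 0.0783 to 0.225 log2 units per 10 percentage points. In basal Control libraries the same slope was 0.123 in replicate 1 and -0.117, -0.11 and -0.104 in replicates 2, 3 and 4. Over all tested genes with a GC value the rank correlation of the DKD log2 fold change with GC content was 0.466, a description across genes of the same libraries. In FoxK1 KD cells insulin lowered Hdac2 slightly, from 169, 185, 191 and 182 CPM to 171, 169, 155 and 145 CPM with overlapping groups (log2 fold change -0.19 ± 0.07 (SE), adjusted p = 0.0482), and this call was lost after the same correction (-0.06 ± 0.07, adjusted p = 0.6), with no filter on low counts, with only these 8 libraries fitted, with the replicate number as a block, and without FoxK1 KD basal replicate 2, 3 or 4 or insulin replicate 3 or 4 (-0.19 to -0.14).

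Hdac1 (chr4:129516104-129542713, minus strand) passed the test in none of the 13 comparisons. It was at 38.5 ± 1.69 CPM (SD, n = 4) in Control and 36.1 ± 2.08 CPM (SD, n = 4) in DKD at basal, and its group means lay between 35.5 and 41.2 CPM. Its log2 fold change in DKD at basal was -0.09 with a 95% interval of -0.29 to 0.10. In FoxK1 KD cells it was 0.20 for insulin (adjusted p = 0.132), the largest of its 4 insulin effects. The level of Hdac1 is uncertain, since the processed pseudogene Gm10093 is 99.4% identical to its transcript over 1444 bases and was itself assigned 713 counts over the 30 libraries, against 4168 for Hdac1. How reads that fit both were counted is not given in the sources used here. Hdac1 stood at 0.196 to 0.258 times the CPM of Hdac2 in the group means of the ratio, and at 11.1 against 38.0 CPM per kb. At basal the ratio was higher in every DKD library than in every Control library. With GC content and length corrected its mean log2 values were -2.22 in DKD and -2.23 in Control.

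Of the SIN3 core subunits, Sap30 (chr8:57482707-57487860, minus strand) was at 88.7, 69.8, 68.2 and 54.8 CPM in basal Control libraries. It was at 59.3, 55.5, 44.7 and 51.1 CPM in FoxK1 KD, 67.9, 57.0, 58.1 and 58.7 CPM in FoxK2 KD and 40.2, 48.3, 49.0 and 48.0 CPM in DKD. Only the DKD libraries all lay below the lowest Control library. In DKD the log2 fold change was -0.59 ± 0.12 (SE), adjusted p = 0.00053, from a mean of 70.4 ± 14.0 CPM (SD, n = 4) to 46.4 ± 4.15 CPM (SD, n = 4), and with GC content and length corrected it was -0.75 ± 0.12 (adjusted p = 2.87e-05). In FoxK1 KD it was -0.41 ± 0.12 (adjusted p = 0.0246), a call lost after that correction (-0.33 ± 0.11, adjusted p = 0.0594) and without Control basal replicate 1, which had the highest Sap30 of all libraries (-0.28), FoxK1 KD basal replicate 3 (-0.34) or replicate 4 (-0.40). It was also lost when only these 8 libraries were fitted. In FoxK2 KD it was -0.21 (95% interval -0.44 to 0.01) and was not called.

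After insulin Sap30 was at 66.4, 64.5 and 61.6 CPM in Control and 62.9, 62.7 and 63.0 CPM in DKD. The groups overlapped, with a log2 fold change of -0.03 (95% interval -0.30 to 0.23). In FoxK1 KD after insulin Sap30 was below every Control library (-0.31, unadjusted p = 0.0234, adjusted p = 0.199). In FoxK2 KD after insulin it was above every Control library (0.23, unadjusted p = 0.073, adjusted p = 0.889). Neither was called, and 16% and 7.27% of all tested genes had no overlap in these comparisons. Insulin raised Sap30 in DKD cells (log2 fold change 0.44 ± 0.13 (SE), adjusted p = 0.0171), without overlap between the groups, a call lost without DKD basal replicate 1 (0.37) or DKD insulin replicate 1 (0.44). In FoxK2 KD cells insulin raised it to 68.8, 78.9, 82.2 and 72.1 CPM (log2 fold change 0.32 ± 0.11 (SE), adjusted p = 0.0314), a call lost with GC content and length corrected (0.23) and without FoxK2 KD basal replicate 2, 3 or 4 or insulin replicate 2 or 3 (0.28 to 0.31). In Control and FoxK1 KD cells the effects were -0.12 and -0.02, neither called. The insulin effect in DKD minus that in Control was 0.56 (95% interval 0.21 to 0.92, unadjusted p = 0.00355, adjusted p = 0.106) and was not called, though it passed with no filter on low counts and without Control basal replicate 4.

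**Figure D3:**
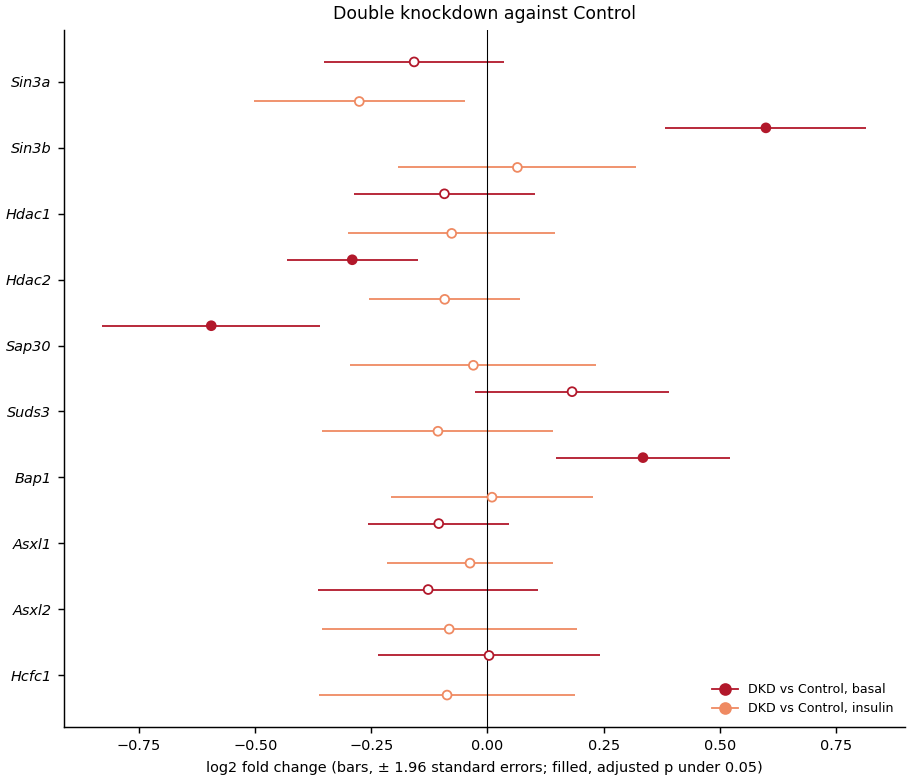
Log2 fold change of each member in DKD against Control at basal (dark) and after insulin (light), with bars of the 95% interval and filled points for adjusted p below 0.05. At basal Sin3b (0.60) and Bap1 (0.33) are higher and Sap30 (-0.59) and Hdac2 (-0.29) lower, and after insulin no point is filled.

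Suds3 (chr5:117091680-117116113, minus strand) was lowered by insulin in 3 of the 4 states. In DKD cells it went from 182, 189.6, 170.3 and 166 CPM to 128, 107 and 115 CPM. The groups were far apart (log2 fold change -0.60 ± 0.12 (SE), adjusted p = 0.000444), and leaving out any 1 of the 7 libraries kept the call (-0.67 to -0.55). In FoxK2 KD cells it went from 155, 152, 156 and 156 CPM to 139, 121, 133 and 109.6 CPM, again without overlap (log2 fold change -0.30 ± 0.11 (SE), adjusted p = 0.0363). This call was lost without any 1 FoxK2 KD basal library or without insulin replicate 2 or 4 (-0.30 to -0.24). In Control cells it went from 200.4, 145, 162 and 119.6 CPM to 143, 125 and 108 CPM, with overlapping groups (log2 fold change -0.31 ± 0.12 (SE), adjusted p = 0.048). The Control call was lost in DESeq2 and limma-voom, with a minimum of 10 counts, with only these 7 libraries fitted and without Control basal replicate 1, the highest library (-0.17), basal replicate 3 (-0.29), insulin replicate 2 (-0.31) or insulin replicate 3 (-0.23). In FoxK1 KD cells the log2 fold change was -0.20 (95% interval -0.42 to 0.01, adjusted p = 0.16). The DKD effect minus the Control effect was -0.29 (95% interval -0.61 to 0.04, adjusted p = 0.429), so the sizes were not shown to differ. At basal Suds3 was not called in DKD against Control (0.18, adjusted p = 0.229), and it was called higher without Control basal replicate 1.

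In the BAP1 complex, Bap1 (chr14:31251450-31259944, plus strand), the deubiquitinase itself, was at 91.3, 76.3, 67.0 and 71.2 CPM in basal Control libraries and 101, 101, 85.6 and 96.0 CPM in DKD. Control replicate 1 lay above the lowest DKD library, and the other 3 lay below all of them (log2 fold change 0.33 ± 0.10 (SE), adjusted p = 0.0107). The call was lost when only these 8 libraries were fitted, without Control basal replicate 3 (0.28), and with GC content and length corrected (0.24 ± 0.09, adjusted p = 0.0639). After insulin the means were 80.9 ± 5.27 CPM (SD, n = 3) in Control and 80.8 ± 12.6 CPM (SD, n = 3) in DKD, a log2 fold change of 0.01 (95% interval -0.21 to 0.23). In DKD cells insulin gave -0.24 (adjusted p = 0.112), which was called without DKD insulin replicate 3, at 94.0 CPM the highest of its group, and at the 0.25 threshold.

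Asxl1 (chr2:153345829-153404007, plus strand), a subunit that BAP1 needs for activity, was at 127, 123, 129 and 125 CPM in FoxK1 KD cells at basal and at 106, 91.1, 103 and 106 CPM after insulin. The groups did not overlap (log2 fold change -0.31 ± 0.08 (SE), adjusted p = 0.00273), and leaving out any 1 library kept the call (-0.33 to -0.26). In Control cells it was at 119.9, 127, 121 and 108 CPM and 87.0, 109 and 104 CPM, overlapping by 1 library (log2 fold change -0.25 ± 0.08 (SE), adjusted p = 0.0264), a call lost with no filter on low counts, with only these 7 libraries fitted and without Control basal replicate 2 (-0.22) or 3 (-0.24) or insulin replicate 1 (-0.16). The insulin effect was -0.19 in FoxK2 KD (adjusted p = 0.0583) and -0.18 in DKD (adjusted p = 0.143), neither called, and the FoxK2 KD effect was called with GC content and length corrected. The differences of these effects from that in Control were between -0.06 and 0.07 on the log2 scale, and none was called. No knockdown changed Asxl1 against Control at basal or after insulin by this test, with log2 fold changes of -0.10 to 0.08.

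Asxl2 (chr12:3426857-3506852, plus strand), the paralog that can take the place of ASXL1 in the complex, was called in 1 comparison. In FoxK1 KD cells it was at 49.3, 57.4, 47.3 and 43.1 CPM at basal and 36.6, 38.5, 38.5 and 43.4 CPM after insulin, overlapping by 1 library (log2 fold change -0.32 ± 0.12 (SE), adjusted p = 0.0444). With GC content and length corrected the log2 fold change was -0.08 ± 0.12 (adjusted p = 0.631), and the call was also lost in DESeq2, in limma-voom, with the replicate block and without FoxK1 KD basal replicate 1 or 2 or insulin replicate 1, 2 or 3 (-0.32 to -0.25). The exons of Asxl2 hold 41.7% GC, the least of the 10 members. The Asxl1 to Asxl2 ratio was 2.83 ± 0.583 in basal Control and 2.79 ± 0.220 in basal DKD libraries (SD, n = 4 each), and the group means of the ratio ranged from 2.31 to 2.83.

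Hcfc1 (chrX:73942792-73966357, minus strand) was at 102, 168, 175 and 187 CPM in basal Control libraries. Replicate 1 stood below the other 3, and the same library had the highest Sap30, Suds3 and Bap1 of its group. In DKD at basal Hcfc1 was at 166, 169, 168 and 134 CPM, overlapping Control, with a log2 fold change of 0.0033 and a 95% interval of -0.24 to 0.24. Across the 13 comparisons the log2 fold changes of Hcfc1 and differences between them ran from -0.15 to 0.15, and none passed the test.

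**Figure D4:**
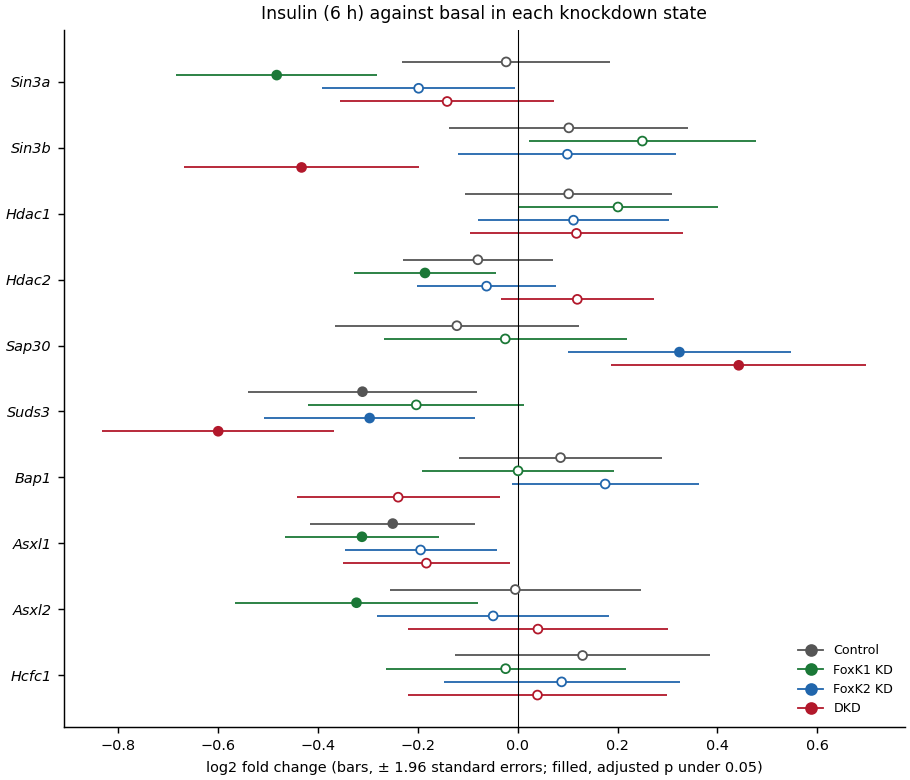
Log2 fold change of each member after insulin against basal in Control cells and in the 3 knockdown states, with bars of the 95% interval and filled points for adjusted p below 0.05. All 4 points of Suds3 (-0.60 to -0.20) and of Asxl1 (-0.31 to -0.18) lie below 0, while Sin3b is below 0 in DKD cells (-0.43) and above it in the other 3 states.

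With each library corrected for GC content and exon length, 2 of 10 members were called in DKD at basal, Sin3b at 0.45 ± 0.10 (adjusted p = 0.00152) and Sap30 at -0.75 ± 0.12 (adjusted p = 2.87e-05). These 2 were called in DKD at basal in every alternative run, including each that left out 1 library, where Sin3b ran from 0.54 to 0.66 and Sap30 from -0.70 to -0.47. Without Control basal replicate 1 the count of members called was 5 of 10. That run called 3062 of all 11368 genes, against 2398 in the main fit.

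**Figure D5:**
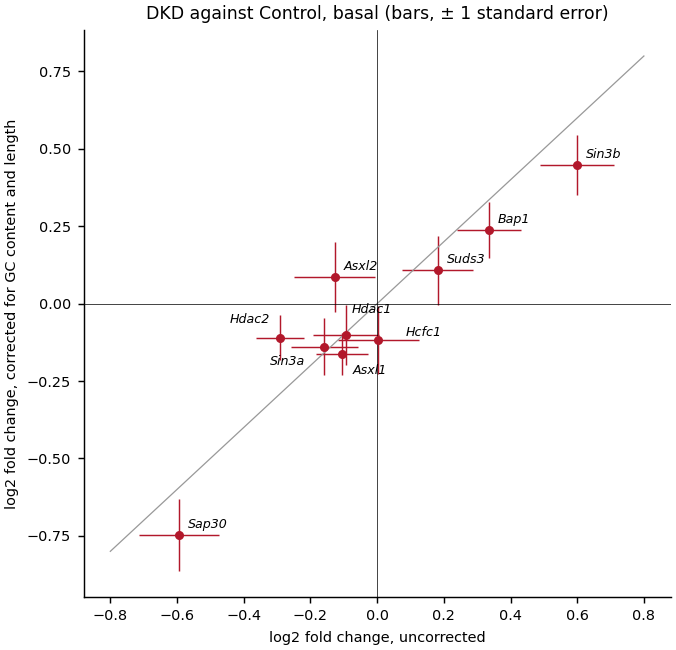
Log2 fold change of each member in DKD against Control at basal before (horizontal) and after (vertical) correction of each library for GC content and exon length, with bars of ± 1 standard error and a line of equality. Sin3b (0.60 and 0.45) and Sap30 (-0.59 and -0.75) stay far from 0 on both axes, and Hdac2 moves from -0.29 to -0.11.

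Further subunits of the same and of neighbouring complexes were read from 6 lists. In DKD at basal, 1 of 16 tested other SIN3 subunits was higher (Morf4l1, a chromodomain subunit, 0.36 on the log2 scale) and 5 were lower, against the 10.3% and 10.8% of all genes given above. The largest was Ogt, the O-GlcNAc transferase that binds SIN3A and HCF-1 (-0.55 ± 0.14, adjusted p = 0.00432), followed by Ing1 (-0.42), Phf12 (-0.41), Arid4b (-0.35) and the histone chaperone Rbbp7 (-0.33). The median of the list was -0.12. When only the 8 libraries compared were fitted, 2 of the 16 were called.

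Of 8 tested other BAP1 complex genes, 0 were higher and 4 lower: the 2 targeted genes, with Foxk2 at -1.49 ± 0.09, adjusted p = 8.15e-14, Ogt, and Ube2o (-0.30), which encodes an enzyme that ubiquitinates BAP1. In the NuRD complex, which also holds HDAC1 and HDAC2, 0 of 9 genes were higher and 2 lower, Gatad2b (-0.36 ± 0.10, adjusted p = 0.00752) and Mbd2 (-0.26). In CoREST, another HDAC1 and HDAC2 complex, 0 of 9 were higher and 2 lower, Rcor3 (-0.48 ± 0.15, adjusted p = 0.0159) and Zmym2 (-0.28). Of 12 genes of PRC1, which writes the ubiquitin mark on H2A that BAP1 removes, 1 was higher, Kdm2b (0.33), and 2 lower, Rybp (-0.55 ± 0.12, adjusted p = 0.000866) and Pcgf5 (-0.53). Of 8 genes of the SET1 methyltransferase complex, which HCF-1 also binds, 1 was higher, Cxxc1 (0.30 ± 0.09, adjusted p = 0.0137), and 0 lower. The medians of these lists were -0.28 for BAP1, 0.03 for NuRD, 0.06 for CoREST, -0.07 for PRC1 and -0.02 for SET1, against -0.00056 over all genes. The BAP1 count and median include the 2 targeted genes, whose fall was set by the siRNA, so they do not describe the partner genes alone. With GC content and length corrected, 4 NuRD, 0 CoREST and 1 PRC1 genes were called.

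After insulin, DKD against Control called 1.21% of all tested genes, a share at which lists this short are likely to hold 0. It called 0 of the 16 SIN3, 9 NuRD, 9 CoREST, 12 PRC1 and 8 SET1 genes, and DESeq2 and limma-voom also called 0 of these. Of the 8 BAP1 genes it called only the 2 targeted ones, with Foxk2 at -1.34 ± 0.10, adjusted p = 5.00e-11 and Foxk1 at -0.62 ± 0.15, adjusted p = 0.0222. Within DKD cells insulin raised Ogt (log2 fold change 0.60 ± 0.15, adjusted p = 0.004) and Ube2o (0.34 ± 0.10, adjusted p = 0.0117), both of which were lower in DKD at basal in the comparison that shares these 4 basal libraries. In Control cells insulin lowered 2 of 16 SIN3 genes, Kdm5a (-0.60 ± 0.09, adjusted p = 2.28e-06) and Arid4b (-0.43 ± 0.11, adjusted p = 0.00477), and raised 0 of them, against the 13.1% of all genes lower and 12.4% higher given above. In the same comparison 1 of 9 NuRD genes was higher and 4 lower, 0 of 9 CoREST genes higher and 1 lower, 0 of 12 PRC1 genes higher and 3 lower, 0 of 8 BAP1 genes higher and 1 lower, and 1 of 8 SET1 genes higher and 0 lower.

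Over the 30 libraries the gene whose log2 CPM followed that of a member most closely was Qars for Suds3 (Pearson r = 0.899), Sptan1 for Asxl1 (0.881), Dctn1 for Sin3b (0.852), Mad2l1 for Sap30 (0.843), Mapk1ip1l for Sin3a (0.83), Ythdc1 for Hdac2 (0.83), Rictor for Hcfc1 (0.826), Sil1 for Bap1 (0.748), Dync1li2 for Asxl2 (0.696) and E2f2 for Hdac1 (0.686). The next closest were Rras for Suds3 (0.864), Chd4 for Asxl1 (0.874), Ehmt2 for Sin3b (0.844), Akr1c19 for Sap30 (0.807), Pdcl for Sin3a (0.816), Eif5 for Hdac2 (0.817), Lig3 for Hcfc1 (0.821), Ap2s1 for Bap1 (0.729) and Pggt1b for Asxl2 (0.69). Chd4, the ATPase of NuRD, also lies on the list of that complex. The points share libraries, groups and base composition: with GC content and length corrected the r with Sin3b was 0.579 for Dctn1 and 0.423 for Ehmt2, the r with Asxl2 was 0.0936 for Dync1li2 and 0.408 for Pggt1b, and that of Eif5 with Hdac2 was 0.535, while that of Qars with Suds3 was 0.903. Among the 45 pairs of members, the most alike were Sin3a and Asxl1 (r = 0.63, and 0.65 after the correction) and the most opposed were Sin3b and Asxl2 (-0.55, and 0.00526 after the correction).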

How the data were processed

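Poly(A) RNA of AML12 cells was sequenced in 30 libraries. Per the submitters' processing notes, CASAVA 1.8, STAR 2.4.2a, featureCounts and build GRCm38.p4 were used, and the authors deposited 1 file of raw read counts per gene for each library. Strand and multi-mapping settings are not given in the sources used here. Identifiers were matched to symbols, GC content and exon length through GENCODE M21 (48435 of 49089 matched).

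The members and lists were chosen with earlier results of these data known. All counts were fitted together with edgeR 4.0.16 in R 4.3.3 (filterByExpr, TMM, quasi-likelihood test, 8 groups, 11368 genes), with Benjamini-Hochberg adjustment over all tested genes and calls at an adjusted p below 0.05. The study's methods name empirical Bayes linear models in limma. An adjusted p below 0.25, alone and with a 1.5-fold change, as in the study's text, was run as an alternative. The tests were checked on simulated counts. Printed 95% intervals use a normal multiple of the standard error and are slightly narrower than the test implies. All p-values in the text without another name come from this edgeR fit.

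Alternatives were DESeq2 1.42.0, limma-voom (limma 3.58.1), other filters, only the groups compared, the replicate number as a block, a per-library spline correction for GC content and exon length, and each library left out. The list counts were repeated under alternatives chosen after seeing the data. Replicate numbers did not pair the samples: same-numbered samples of different groups had a mean correlation of deviations of -0.0134 over 99 pairs, with 8 over 0.1. No 2 replicates agreed within sampling noise (chi-square at least 1.7 times its degrees of freedom in each of 42 pairs). Named were all 10 members, Foxk1 and Foxk2, the called gene of each list with the largest log2 fold change in DKD against Control, and the 2 genes most correlated with each member, of which 1 is not reported here. Other list genes were named, after their values were seen, where a count in DKD at basal was 5 or fewer, and for SIN3 genes with insulin in Control and Ogt and Ube2o with insulin in DKD. Depth of 2141460 to 5668270 counts limits the precision of low genes. Promoter windows are from RefSeq.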

Additional observations from a re-analysis of the deposited data

Results flagged for a closer look

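The 10 members in each of the 6 groups of 4 libraries gave 60 sets of 4 values. In 7 of them the highest or lowest library stood apart from the other 3 by more than Dixon's 95% critical value for 4 samples. Chance alone gives this in about 5% of independent sets. These sets share libraries and are not independent, so the count cannot be tested against that share. After insulin, Sin3a was at 94.0 CPM in FoxK1 KD replicate 3, against 69.4 to 72.4 CPM in the other 3. Asxl1 was at 91.1 CPM in FoxK1 KD insulin replicate 2, against 103 to 106 CPM.

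FoxK2 KD basal replicate 1 stood apart for a pair of members: Sin3b was at 49.1 CPM there, against 60.7 to 61.1 CPM, and Sap30 at 67.9 CPM, against 57.0 to 58.7 CPM. DKD basal replicate 1 had Hdac1 at 33.0 CPM, against 36.9 to 37.5 CPM, and Sap30 at 40.2 CPM, against 48.0 to 49.0 CPM. Hcfc1 was at 134 CPM in DKD basal replicate 4, against 166 to 169 CPM in the other 3. The source of these differences was not tested.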

How the results depend on the processing

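No call changed direction under any alternative run. Sin3b and Sap30 in DKD at basal and Suds3 with insulin in DKD cells were called under every alternative, and Sin3a and Asxl1 with insulin in FoxK1 KD cells under all but the 0.25 threshold with a 1.5-fold change. The count of members called for insulin in Control (2) was 1 with DESeq2, limma-voom, a minimum of 10 counts and no filter, and 0 with only the groups compared. Over all genes DESeq2 called 2762 and limma-voom 2815 of 11368 in this comparison. The minimum of 10 counts called 2727 of 9623 and no filter 2668 of 23784. With only the groups compared the count of members was also 0 for FoxK1 KD against Control at basal (1) and after insulin (1). Over all genes that setting called 1102 for insulin in Control (2890 in the main fit). For FoxK1 KD it called 45 at basal (920) and 314 after insulin (408). With GC content and exon length corrected the count of members was 2 for DKD at basal (4), 2 for insulin in FoxK1 KD (4) and 0 for FoxK1 KD at basal. Over all genes the correction called 1812 (2398), 3434 (3588) and 995 (920) in these comparisons, in that order.

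With the replicate number as a block, which did not pair the samples (3 of 30 samples correlated best with their own number), the count was 0 for FoxK1 KD after insulin and 2 for insulin in FoxK1 KD. Of all 11368 genes the block called 331 and 3512 in these comparisons, in that order. With the block and the correction together the count of members was 0 for FoxK1 KD at basal and after insulin, and 2 for DKD at basal and for insulin in FoxK1 KD. Over all genes 923, 428, 1704 and 3320 were called in these comparisons, in that order. At an adjusted p below 0.25 the count of members was 2 for FoxK1 KD after insulin, 7 for insulin in FoxK1 KD, 5 in FoxK2 KD (2) and 5 in DKD (3). For the insulin effect in FoxK1 KD and DKD minus Control it was 1 and 2 (0 each). The latter was also 1 with no filter at an adjusted p below 0.05, where 359 of 23784 genes were called. Adding a 1.5-fold minimum gave 2 for DKD at basal, 1 for insulin in DKD and 0 for FoxK1 KD at basal and after insulin and for insulin in Control, FoxK1 KD and FoxK2 KD. The shares of all genes called under these other thresholds are not given here, so these counts have no background beside them.

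Leaving out 1 library gave 3 to 5 for DKD at basal, 0 to 1 for FoxK1 KD at basal and after insulin, 0 to 2 for insulin in Control and in FoxK2 KD, 2 to 3 in FoxK1 KD and in DKD, and 0 to 1 for the DKD effect minus Control. Of all 11368 genes these runs called 1683 to 3062 for DKD at basal. For FoxK1 KD they called 408 to 1244 at basal and 228 to 295 after insulin. For insulin they called 2213 to 2901 in Control, 2590 to 2784 in FoxK2 KD, 2961 to 3289 in FoxK1 KD and 1172 to 1692 in DKD. The DKD effect minus Control called 71 to 357 genes. The causes were not tested. List counts were recomputed under alternatives chosen after seeing the data. The log2 Sin3a to Sin3b ratio in DKD at basal was 0.09, and -0.03 without DKD basal replicate 4. With the correction the log2 Hdac1 to Hdac2 ratio in DKD at basal was -2.22 in place of -2.09, and that of Asxl1 to Asxl2 1.25 in place of 1.48, and 1.55 in place of 1.36 in FoxK1 KD at basal.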
